A study of Homo sapiens with 17 samples.

Results

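Ras-only H3K4me3 mesas are broad stretches of the genome that the study listed as higher in H3K4me3 after Ras induction and that no replicative senescence H3K4me3 mesa touched. They were chosen by the called positions of H3K4me3 gain in both forms of senescence, as the Ras-induced mesas on the 22 autosomes that share no base pair with any replicative mesa. This gave 361 of 755 autosomal Ras-induced mesas (47.8%). The deposited Ras-induced list holds 806 mesas over all chromosomes, and the 5 lists of the series hold 6322 regions. Ras-only mesas summed to 273 Mb, which is 40.5% of autosomal Ras-induced mesa length and 9.79% of the autosomal span covered by the lists. They were found at LAD borders and inside LADs in similar numbers, and more of their length lay under losses of H3K27me3 than under gains. The same order held in the autosomal span outside replicative mesas. There losses covered 39.5% and gains 12.7% of length, against 36.3% and 26.5% of Ras-only length. LADs are lamina-associated domains, the parts of the genome that contact the nuclear lamina.

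H3K4me3, trimethylation of lysine 4 of histone H3, is laid down by COMPASS-type methyltransferases. It usually forms narrow peaks at active promoters, so a broad domain of this mark is unusual. H3K27me3, trimethylation of lysine 27, is laid down by Polycomb repressive complex PRC2 and accompanies silenced genes. LADs are mostly gene-poor and lowly transcribed, and lamin B1, a filament protein of the lamina, is lost from fibroblasts as they become senescent. Senescence is a lasting stop of cell division, reached by repeated passage (replicative senescence) or by an activated oncogene such as Ras.

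The study used IMR90, a line of human lung fibroblasts, and chromatin immunoprecipitation followed by sequencing, with 17 libraries in 11 groups. The Ras-induced list compares cells infected with a retroviral ER:Ras construct and given 100 nM 4-hydroxytamoxifen with control cells, all at population doubling 15 and grown in medium with 20% serum and 500 µg/ml G418. The labels do not say whether the control cells carried the construct, or how long Ras was induced. The replicative H3K4me3 list compares senescent cells at doubling 87, held for 2 weeks after growth ceased, with proliferating cells at doubling 24. The H3K27me3 lists compare the same replicative states, with 2 senescent and 4 proliferating libraries. The LADs come from 1 lamin B1 library of proliferating cells at doubling 24. All these proliferating and senescent cells were grown with 10% serum, and the labels give no G418 for them. Each H3K4me3 group holds 1 library, and no H3K27me3 or lamin B1 library of Ras-induced or control cells was analysed here, so LAD and H3K27me3 positions below are those of replicative passage.

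The study's word mesa is taken to mean a broad gain of a mark upon senescence, and its word canyon a broad loss. The lists hold coordinates only, in build hg18, with no signal, read count or value per replicate. The depth is therefore unknown, no error between cultures can be given, and no test was possible: every difference below is a description of these lists. A Ras-induced mesa is absent from the replicative list when it was not called there, which does not show that H3K4me3 was the same in senescent and proliferating cells.

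The lengths of Ras-only mesas ran from 501 kb, where the list begins, to 2.70 Mb. Their median was 651 kb (quartiles 567 and 866 kb), against 874 kb for the 394 Ras-induced mesas that share base pairs with a replicative mesa, called shared below. The medians were in this order on 20 of 22 autosomes. A longer region has more room to touch another, and the rule by itself favours short members. Of Ras-induced mesas under 0.6 Mb, 66.8% were Ras-only (131 of 196). Of those of at least 1 Mb, 27% were (55 of 204). For this reason the main comparisons are also given among short mesas alone.

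**Figure D1:**
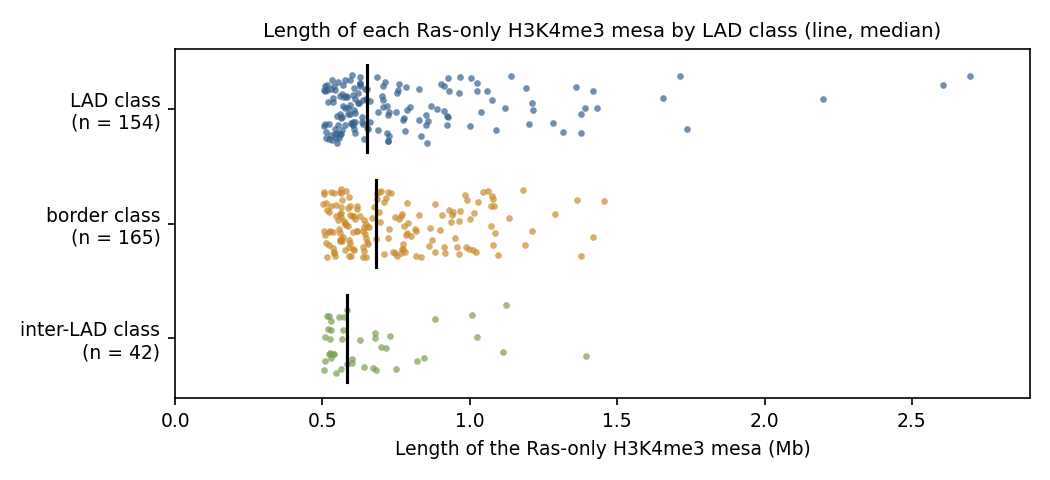
Length in Mb of each of the 361 Ras-only H3K4me3 mesas, 1 point a mesa (spread vertically only for visibility), by LAD class; the black line is the class median. Most mesas lie under 1 Mb in each class, and those above 1.5 Mb are all in the LAD class.

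The 5 longest Ras-only mesas were all in the LAD class and had most of their length under H3K27me3 mesas. The longest lay on chromosome 3 at 472001 to 3169999 (2.70 Mb), wholly inside a LAD of 4.38 Mb and with 95.2% of its length under an H3K27me3 mesa. The next, on chromosome 22 at 45923001 to 48527999 (2605 kb), was the only Ras-only mesa of that chromosome, lay wholly in a LAD and was 96.9% under H3K27me3 mesas. These 2 lay 0.472 and 1.16 Mb from an end of the span covered by the lists, close to the chromosome ends. The mesa on chromosome 6 at 161607001 to 163803999 (2.20 Mb) was 97.5% in LADs and 84.4% under H3K27me3 mesas. H3K27me3 mesas covered 67.9% of the fourth, on chromosome 15 at 94608001 to 96344999 (1.74 Mb). They covered 100% of the fifth, on chromosome 17 at 48155001 to 49868999 (1.71 Mb). These long cases are not typical, since the median Ras-only mesa had 0% of its length under H3K27me3 mesas.

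The rule has a threshold of 1 shared base pair, and few regions lay close to it. The longest mesa, on chromosome 3, was also the nearest to a replicative mesa, at a gap of 11 kb. The next nearest, on chromosome 10 at 82571001 to 83118999, had a gap of 12 kb. Just outside the rule, the Ras-induced mesa on chromosome 11 at 81224001 to 81763999 shared 9.00 kb (1.67% of its length), and that on chromosome 10 at 112448001 to 113104999 shared 25 kb (3.81%). Only 20 Ras-only mesas (5.54%) lay within 0.1 Mb of a replicative mesa. The median gap was 1318 kb, and 142 Ras-only mesas (39.3%) had a replicative mesa within 1 Mb. The farthest, on chromosome 4 at 105250001 to 105827999, was 18.3 Mb from any, and the second farthest, at 103241001 to 103828999, was 16.3 Mb from any. Both lay wholly under the same canyon of 8.61 Mb.

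Every autosome held Ras-only mesas, between 1 on chromosome 22 and 32 on chromosome 3. Their number averaged 12.8 ± 3.87 per 100 Mb of span (SD over 22 autosomes), and was highest on chromosome 18 at 22.3. By length they covered 9.98 ± 2.57% of an autosome (SD over 22 autosomes), with 5.01% of chromosome 4 as the lowest and 15.5% of chromosome 19 as the highest value. The share of a chromosome's Ras-induced mesas that were Ras-only averaged 46.1 ± 12.9% (SD over 22 autosomes). It was 65.4% on chromosome 18 (17 of 26), 63.6% on chromosome 13 (14 of 22) and 61.5% on chromosome 3 (32 of 52). It was lowest on chromosome 22, at 10.0% (1 of 10), then on chromosome 16, at 24.1% (7 of 29), and on chromosome 19, at 33.3% (10 of 30). The shares on the small chromosomes rest on few mesas.

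**Figure D2:**
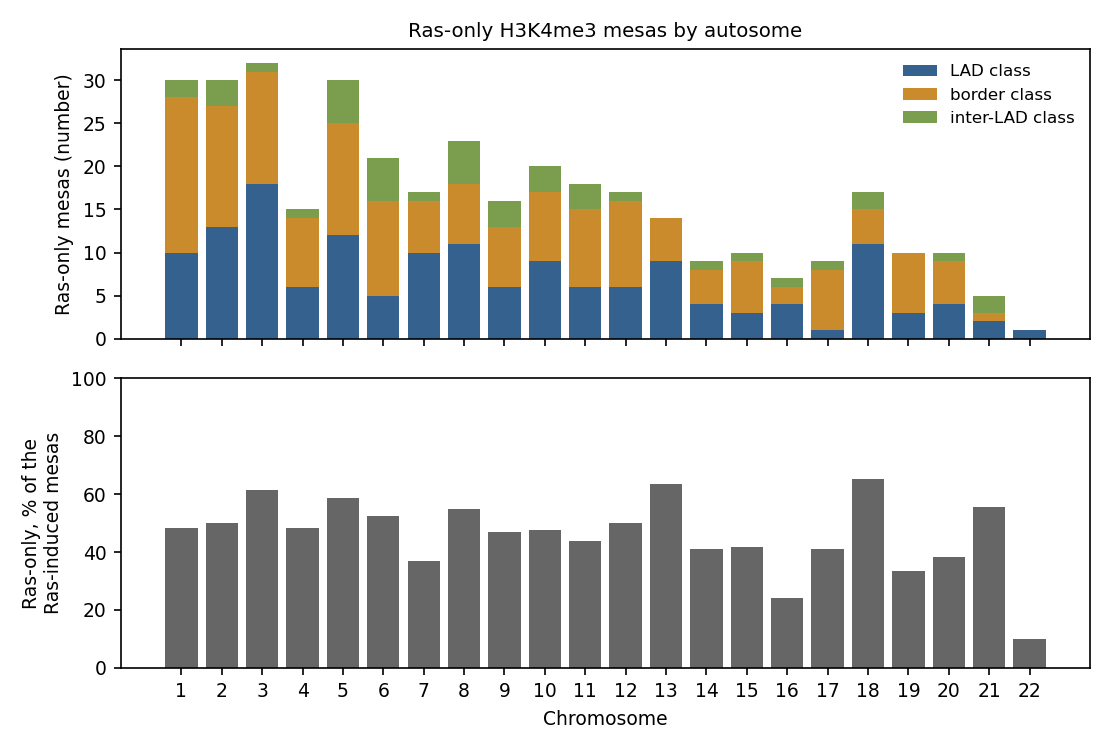
Above, the number of Ras-only H3K4me3 mesas on each of the 22 autosomes, stacked by LAD class; below, their share of the chromosome's Ras-induced mesas in percent. Chromosome 3 has the most Ras-only mesas (32) and chromosome 18 the highest share (65.4%), and chromosome 22 holds 1 of 10.

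Ras-only mesas were next placed against the LADs. The LAD class has at least 90% of its length in LADs, the inter-LAD class at most 10%, and the border class lies between. The border class was the most frequent, with 165 of 361 Ras-only mesas (45.7%), against 43.3% of all 755 Ras-induced mesas. The LAD class held 154 (42.7%), against 50.3% of all Ras-induced mesas. The inter-LAD class held 42 (11.6%), against 6.36% of all. Among the 394 shared mesas the inter-LAD class held 6 (1.52%), so 42 of the 48 inter-LAD Ras-induced mesas were Ras-only. The LAD class was correspondingly larger among shared mesas, with 226 of 394 (57.4%). Wholly inside LADs were 129 Ras-only mesas (35.7%), against 37.1% of all Ras-induced mesas, each of these 129 within a single LAD. Wholly outside LADs were 36 (9.97%), against 5.43% of all.

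In base pairs, 69.7% of Ras-only mesa length lay in LADs, against 83.8% of shared mesa length, a difference of -14.10 points. The Ras-only share was lower than the shared on 18 of 22 autosomes. Shared mesas have to touch replicative mesas, which had 89.2% of their own autosomal length in LADs, so part of this difference is set by the rule. The autosomal span outside replicative mesas, where Ras-only mesas must lie, was 55.8% LAD, and the Ras-only share was lower than that of this territory on 0 of 22 autosomes. Over single autosomes, the Ras-only share in LADs was 70.6 ± 10.9% (SD over 22 autosomes). Among mesas under 0.6 Mb, the share in LADs was 61.0% for Ras-only and 89.6% for shared mesas, a wider gap than over all lengths. Among those of at least 1 Mb it was 75.6% and 84.8%.

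Border cases were of several kinds. Of the 165 border mesas, 62 contained 1 LAD edge, 60 contained 2 and 43 contained 3 or more. Shares of border mesas with 1, 2 and 3 or more edges were 37.6%, 36.4% and 26.1%, close to the 42.2%, 32.1% and 25.7% of all 327 Ras-induced border mesas. Of the Ras-only border mesas 66 (40.0%) touched 2 or more LADs, against 38.2% of all Ras-induced border mesas. The longest LAD touched had a median of 500.0 kb in the border class. The longest border mesa, on chromosome 11 at 68368001 to 69823999 (1.46 Mb), had 15.2% of its length in 2 short LADs and 73.8% under canyons. The next, on chromosome 2 at 233405001 to 234821999 (1.42 Mb), was 62.1% in LADs and 99.8% under 6 canyons, the longest of 3.96 Mb. The third, on chromosome 10 at 10160001 to 11536999 (1.38 Mb), was 76.0% in 3 LADs, with 12.9% under H3K27me3 mesas and no canyon.

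The 42 inter-LAD mesas were short, with a median of 583 kb against 650.0 kb for the LAD class and 683 kb for the border class. The longest was on chromosome 9 at 99517001 to 100911999 (1395 kb), touched no LAD and was 98.7% under 2 canyons, the longer of 2.08 Mb. The second, on chromosome 2 at 101413001 to 102535999 (1.12 Mb), was 7.66% in a LAD and 92.1% under a canyon. The third, on chromosome 15 at 66322001 to 67433999 (1.11 Mb), was 82.2% under a canyon and lay 0.126 Mb from a replicative mesa. All 3 thus lay mainly in stretches listed as losing H3K27me3.

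Ras-only mesas lay under H3K27me3 loss more often than under gain, as did the autosomal span outside replicative mesas (39.5% against 12.7% of length). Canyons covered at least 50% of 141 Ras-only mesas (39.1%), against 26.0% of all Ras-induced mesas and 55 of 394 shared mesas (14.0%). H3K27me3 mesas covered at least 50% of 81 Ras-only mesas (22.4%), against 32.7% of all Ras-induced mesas and 166 of 394 shared mesas (42.1%). The order of the H3K27me3 states was therefore opposite among Ras-only and shared mesas. The rule sets part of this, since shared mesas have to touch replicative mesas. By length, replicative mesas were 40.4% under H3K27me3 mesas and 15.6% under canyons. Wholly under canyons were 69 Ras-only mesas (19.1%), against 11.4% of all Ras-induced mesas. Wholly under H3K27me3 mesas were 37 (10.2%), close to the 9.27% of all. No base pair of either H3K27me3 set was found in 50 Ras-only mesas (13.9%), against 11.7% of all Ras-induced mesas. Base pairs of both were found in 62 (17.2%), against 24.6% of all.

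In base pairs, canyons covered 36.3% of Ras-only and 15.6% of shared mesa length, a difference of 20.7 points, with the Ras-only share higher on 19 of 22 autosomes. H3K27me3 mesas covered 26.5% of Ras-only and 46.8% of shared mesa length, a difference of -20.2 points, with the Ras-only share lower on 21 of 22. Replicative mesas, which shared mesas have to touch, had 15.6% of their own autosomal length under canyons and 40.4% under H3K27me3 mesas. Part of both differences is therefore set by the rule. The spread between chromosomes was wide, at 33.5 ± 14.6% under canyons and 28.4 ± 19.8% under H3K27me3 mesas (SD over 22 autosomes). Ras-only mesas had 0.401% of their length under H3K27me3 mesas on chromosome 4 and 3.15% on chromosome 12, whereas on chromosome 7 the value was 44.9%. Canyon cover was highest on chromosome 13, at 56.1%. Among mesas under 0.6 Mb the contrast in canyon cover was larger, with 50.8% of Ras-only and 17.5% of shared length (65 shared mesas). H3K27me3 mesas then covered 13.6% of Ras-only and 34.2% of shared length. Among mesas of at least 1 Mb, canyon cover was 27% of Ras-only and 13.1% of shared length, and H3K27me3 mesa cover 41.0% and 57.0%.

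The H3K27me3 state went with the LAD class. Of the 154 LAD class Ras-only mesas, 62 (40.3%) were at least 50% under H3K27me3 mesas and 25 (16.2%) at least 50% under canyons. Of the 165 border mesas, 18 (10.9%) were at least 50% under H3K27me3 mesas and 86 (52.1%) under canyons. Of the 42 inter-LAD mesas, 1 was at least 50% under H3K27me3 mesas and 30 (71.4%) were under canyons. The classes also differed between Ras-only and shared mesas: in the LAD class 57.5% of shared mesas were at least 50% under H3K27me3 mesas and 4.87% under canyons, and in the border class 22.2% and 25.3%. The Ras-only mesas touched by neither H3K27me3 set were mostly in LADs, 44 of 50 (88%) being in the LAD class. This was near the 73 of 88 (83.0%) among all Ras-induced mesas touched by neither. The longest of the 50 was on chromosome 9 at 11151001 to 12465999 (1315 kb), within a LAD of 5.32 Mb.

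**Figure D3:**
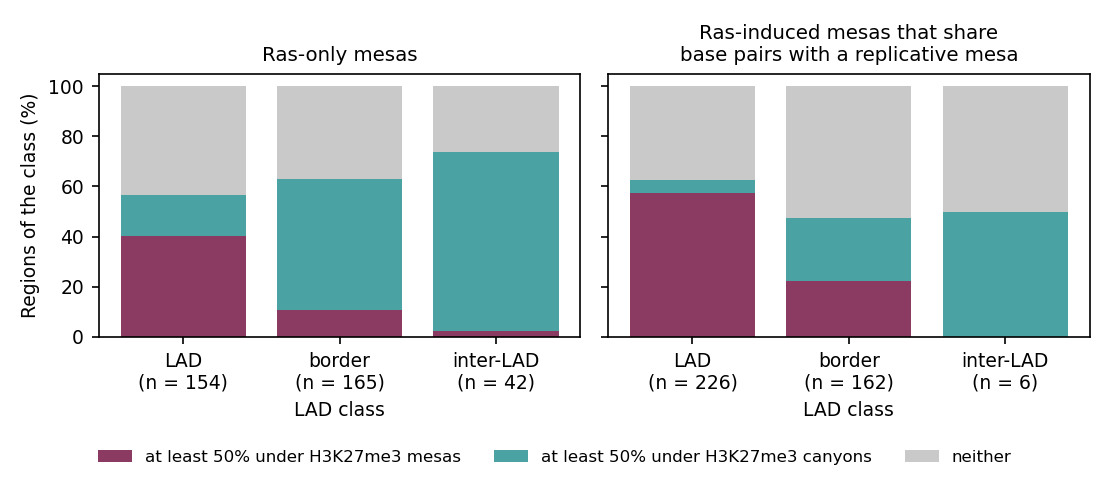
Percent of regions in each LAD class that were at least 50% under H3K27me3 mesas, at least 50% under canyons, or neither, for Ras-only mesas (left) and shared Ras-induced mesas (right). Among Ras-only mesas, canyons take 16.2% of the LAD class, 52.1% of the border class and 71.4% of the inter-LAD class; the right inter-LAD bar rests on 6 regions.

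The H3K27me3 regions met by Ras-only mesas were often longer than the mesas. For the 141 Ras-only mesas at least 50% under canyons, the longest canyon touched had a median of 1.88 Mb, whereas the 1365 autosomal canyons had a median of 129 kb. Mesas chosen for such cover are bound to meet long canyons, so this gap is largely set by the choice. In 127 of the 141 that canyon was longer than the mesa itself, and 69 of the 141 lay wholly under canyons. Likewise, for the 81 at least 50% under H3K27me3 mesas, the longest H3K27me3 mesa touched had a median of 2.00 Mb and was longer than the Ras-only mesa in 60 cases. Where Ras-only mesas crossed LAD edges, their parts inside and outside LADs differed. Of border mesa length inside LADs, 43.4% was under canyons and 17.8% under H3K27me3 mesas. Of border mesa length outside LADs, 57.9% was under canyons and 7.83% under H3K27me3 mesas. Shared border mesas differed in the same direction. Canyons covered 20.2% of their length inside and 44.2% outside LADs, and H3K27me3 mesas 34.1% and 11.4%.

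Set against the territory open to them, Ras-only mesas of all lengths together were richer in H3K27me3 gains and close to it in losses. The autosomal span outside replicative mesas had 12.7% of its length under H3K27me3 mesas and 39.5% under canyons, against the 26.5% and 36.3% of Ras-only mesas. The richness in gains lay in longer mesas. H3K27me3 mesas covered 13.6% of Ras-only length among mesas under 0.6 Mb, close to this territory, and 41.0% among those of at least 1 Mb. The Ras-only share under H3K27me3 mesas was lower than that of this territory on 3 of 22 autosomes, and the share under canyons was lower on 15 of 22. Inside LADs alone, 35.1% of Ras-only length was under H3K27me3 mesas and 24.7% under canyons, against 20.0% and 27.2% of LAD length outside replicative mesas. Outside LADs, 62.8% of Ras-only length was under canyons, against 55.1% of the span outside both LADs and replicative mesas. Over all lengths and positions together, the high canyon share of Ras-only mesas is thus a difference from shared mesas, not from the span outside replicative mesas. This does not hold for short mesas. Canyons covered 50.8% of Ras-only length among mesas under 0.6 Mb, above the 39.5% of that span. The share was below 39.5% in the longer length classes, at 26.98% among mesas of at least 1 Mb. The span includes assembly gaps and other stretches where no region could be called, and their length was not measured here.

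**Figure D4:**
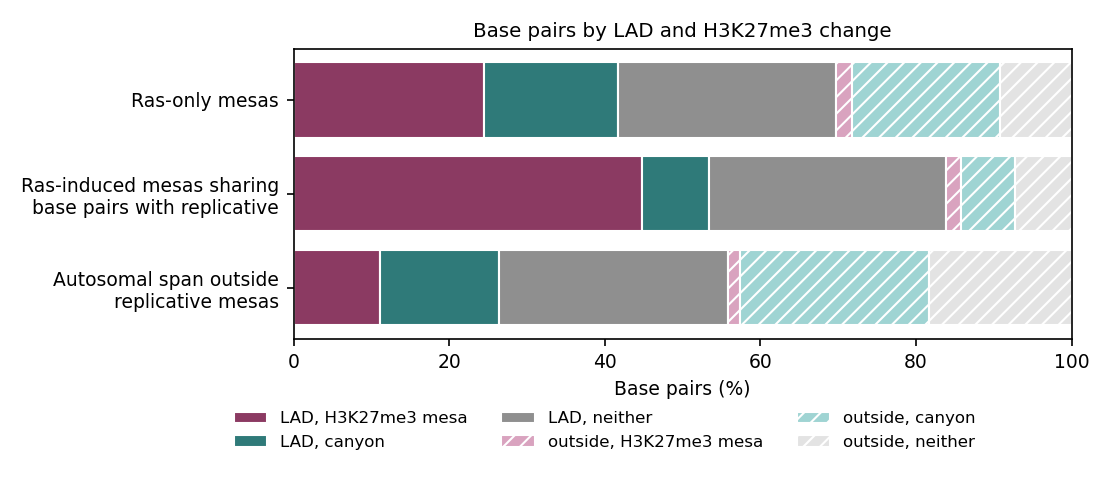
Percent of base pairs in each combination of LAD or outside (hatched) and H3K27me3 mesa, canyon or neither, for Ras-only mesas, shared Ras-induced mesas and the autosomal span outside replicative mesas. Canyons in and outside LADs together take 36.3% of Ras-only length, 15.6% of shared length and 39.5% of that span.

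At 1.5 to 2 Mb, the surroundings of Ras-only mesas differed less from the mesa centres than those of shared mesas did. Within 0.25 Mb of their centres, LADs covered 68.5% of base pairs, H3K27me3 mesas 24.1% and canyons 39.2%. At 1.5 to 2 Mb on either side the values were 61.4%, 20.2% and 36.0%. LAD cover was not flat in between. In single bins of 50 kb it was 70.1% at 0.025 Mb, 58.0% at -0.575 Mb, 57.9% at 0.375 Mb and 67.5% at 1.275 Mb. Shared mesas stood out more from their flanks, with 87.1% at the centre and 60.6% in the flank for LADs, 45.4% and 25.3% for H3K27me3 mesas, and 15.9% and 31.5% for canyons. Flanks at this distance hold other mesas too: Ras-induced mesas covered 31.2% and replicative mesas 18.6% of the flanks of Ras-only mesas. The central peak of shared mesas is in part set by the rule, since replicative mesas covered 77.3% of their centres.

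**Figure D5:**
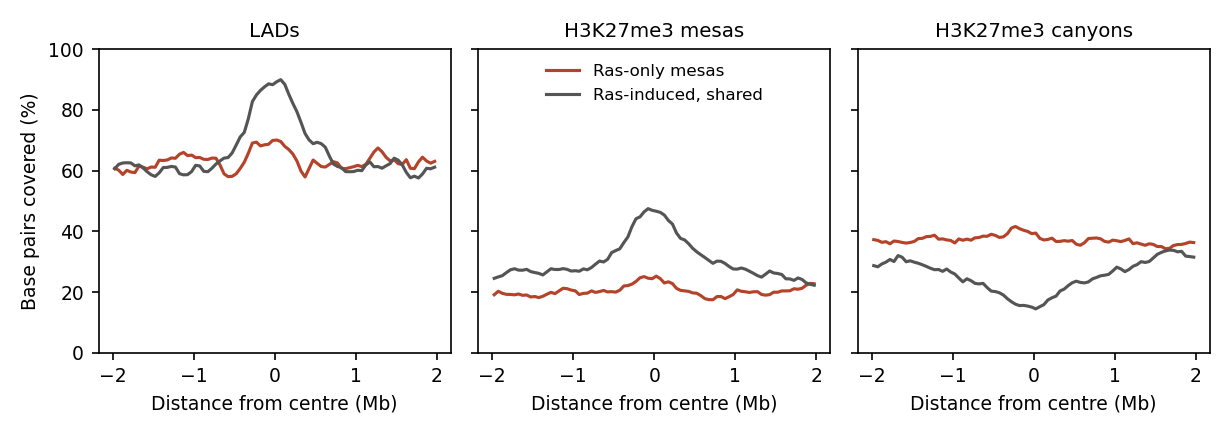
Percent of base pairs under LADs, H3K27me3 mesas and canyons in bins of 50 kb at distances up to 2 Mb from the region centre, for 361 Ras-only and 394 shared Ras-induced mesas. The Ras-only lines vary less than the shared lines, though LAD cover falls from 70.1% at 0.025 Mb to 57.9% at 0.375 Mb. Shared mesas peak at the centre for LADs (87.1% within 0.25 Mb) and dip for canyons (15.9%).

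Ras-only mesas had close neighbours of the same list about as often as all Ras-induced mesas. Another Ras-induced mesa lay within 1 Mb of 240 Ras-only mesas (66.5%), against 65.0% of all. The median gap was 591 kb for Ras-only and 578 kb for all Ras-induced mesas. The nearest Ras-induced mesa was itself Ras-only for 200 of the 361, where Ras-only mesas are 47.8% of all autosomal Ras-induced mesas. Along the chromosomes Ras-only mesas formed 174 runs with no shared mesa in between, of which 85 were single mesas. Whether these runs differ from a random order of Ras-only and shared mesas was not tested. The longest run, described because of its length, held 11 Ras-only mesas on chromosome 3 at 144028001 to 187963999. It had 8 mesas in the LAD class and 3 in the border class, of 506 to 796 kb, and the stretch contained 1 replicative mesa. At the chromosome ends, 41 Ras-only mesas (11.4%) lay within 5 Mb of an end of the span, against 12.8% of all Ras-induced mesas. These 41 had a median length of 768 kb, against 642 kb for the other 320, and 43.9% of their length under H3K27me3 mesas, against 23.7%. The median cover of a single mesa among the 41 was only 1.86%. All Ras-induced mesas showed the same order, with median lengths of 954 kb near the ends and 728 kb elsewhere. H3K27me3 mesas covered 53.6% and 35.6% of their length.

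Ras-only mesas touched 356 of the 2001 autosomal LADs (17.8%). The touched LADs had a median length of 710.0 kb, against 400.0 kb for the rest, and a longer LAD has more room to be touched. Of the touched LADs, 56 (15.7%) also held part of a replicative mesa elsewhere along their length, against 27% of all autosomal LADs (540 of 2001). The rule keeps replicative mesas off the positions of Ras-only mesas, so it lowers the share in touched LADs by itself. Of the 325 Ras-only mesas that touched a LAD, 70 had a replicative mesa in the same LAD or LADs, at a position they did not share. In 37 LADs there were 2 or more Ras-only mesas, and at most 4. No matching count is given here for shared mesas. Of the 2 LADs with 4, the longer lay on chromosome 13 at 51330001 to 59150000 (7.82 Mb), with 1 replicative mesa and no shared Ras-induced mesa.

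The mirror set, replicative mesas sharing no base pair with a Ras-induced mesa, held 186 of 587 autosomal replicative mesas. Ras-only mesas were placed differently from these, with 69.7% against 90.05% of length in LADs and 36.3% against 17.5% under canyons. Cover by H3K27me3 mesas was close, at 26.5% against 25.4%. The inter-LAD class held 42 of 361 Ras-only and 3 of 186 replicative-only mesas. The pair of H3K4me3 lists came from separate experiments with different doublings and media, and those conditions and the form of senescence cannot be told apart.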

How the data were processed

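Members and lists were chosen with earlier results of these data known. The authors deposited 5 lists of regions, each giving chromosome, start and end. The submitters' processing notes name Bowtie 0.12.5 and build hg18. LADs are merged lamin B1 windows and replicative mesas a combined track of more H3K4me3, per the file headers. How regions were called, at which thresholds, whether H3 libraries served as a correction and whether replicates were pooled was not given in the sources used here. Region starts lie on a grid of 10 kb for LADs, 1 kb for H3K4me3 and 0.1 kb for H3K27me3, which limits the precision of edges, and within each H3K4me3 list neighbouring autosomal mesas are never closer than 50.0 kb.

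Overlaps were counted in base pairs with Python 3.11.15, numpy 2.4.6 and pandas 2.3.3, and the arithmetic was tested on simulated data. A chromosome's span is bounded by the outermost coordinates of all lists. Shares are summed base pairs unless counts of regions are given. Regions were named by fixed rules: the longest of all, of each LAD class and of each H3K27me3 state, and those nearest to and farthest from a replicative mesa. Length classes with edges at 0.6, 0.8 and 1 Mb were chosen after the data were seen. No test was run and no p-value is given, since each H3K4me3 group has 1 library and regions or chromosomes are not replicates. Genes and sequences inside the regions were not analysed here.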

Additional observations from a re-analysis of the deposited data

How the results depend on the processing

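Each of 14 results was recomputed under other settings. Of 98 values, 68 stayed within the 95% Wilson interval of the reported value (for numbers of mesas, within 1.5 times; for differences, within that interval's half-width), and 30 moved. The interval treats mesas as independent draws, which they are not, so it serves only as a yardstick and gives no error between cultures. None of the 3 differences from shared mesas changed sign. With each autosome left out in turn, 308 values all stayed within these limits, with 41.3 to 43.8% of Ras-only mesas in the LAD class and 35.6 to 37.1% of length under canyons. No autosome holds more than 32 of the 361 Ras-only mesas, so leaving an autosome out could move the values only a little. Joining LADs over gaps of at most 0.05 Mb could change nothing, since autosomal LADs never lie closer than 60 kb.

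Asking for no replicative mesa within 1 Mb left 219 mesas (29.0% of Ras-induced mesas). Regions of at least 1 Mb gave 55 mesas (26.96%), with 49.1% in the LAD class and 75.6% of length in LADs, 41.0% under H3K27me3 mesas and 26.98% under canyons; the differences from shared mesas were -9.20 points for LADs and 13.9 for canyons. Regions under 0.6 Mb, a setting added after the data were seen, gave 131 mesas (66.8%), with 18.3% inter-LAD, 61.0% of length in LADs, 13.6% under H3K27me3 mesas and 50.8% under canyons. There, 13.7% and 52.7% of mesas were at least 50% under H3K27me3 mesas and canyons, and the differences were -28.6 points for LADs and 33.3 for canyons. Why these values move with length was not tested.

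With LAD and inter-LAD classes wholly in or out of LADs, 35.7% were LAD and 54.3% border. With limits of 75% and 25%, 52.9% were LAD, 29.9% border and 17.2% inter-LAD, so which class is the most frequent depends on the limits. At a cover limit of 25%, 27.4% counted as under H3K27me3 mesas; at 75%, 16.6% did and 32.4% as under canyons. Mesas touched by no H3K27me3 region were 21.1% with H3K27me3 regions of at least 0.05 Mb and 22.2% when touching needed 10% cover. These moves follow from the limits themselves. No paired analysis was possible because the lists hold no values per sample. The unknown depth limits what absence from the replicative list means.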

Other observations

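Chromosome X was outside the rule. Of its 51 Ras-induced mesas, 14 (27.5%) shared no base pair with a replicative mesa, against 47.8% on autosomes. These 14 had a median length of 585 kb and 85.3% of their length in LADs. H3K27me3 mesas covered 72.4% of their length and at least 50% of 10 of them, and none met a canyon. Of the 1374 canyons listed, 1365 are autosomal, so few could be met on chromosome X. Cover of the whole of chromosome X and of its other Ras-induced mesas is not given here. The values therefore cannot be read as particular to these 14. No test was made of the difference from the autosomes.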
